A study of Homo sapiens with 6 samples.

Results

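The transcription factors that drive epidermal differentiation were followed in HaCaT cells, an immortalized line of human skin keratinocytes, cultured with or without histamine. The set has 10 members: TP63, the grainyhead-like factors GRHL1, GRHL2 and GRHL3, OVOL1, ZNF750, the Krüppel-like factors KLF4 and KLF5, and the C/EBP factors CEBPA and CEBPB. All probes annotated to these symbols were taken, 14 of the 47322 probes on the array, which cover 9 of the 10. No probe carries the symbol TP63 in the annotation table used, and TP63 was not analysed here. The 2 groups were HaCaT cells given 1 µg/ml histamine for 24 h and control HaCaT cells, with 3 Illumina HT-12 arrays each. The medium was DMEM, at 1.5 mM calcium, with 10% fetal calf serum. The treatment text is the same on every sample, so the groups rest on the sample titles and the agent label.

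In the epidermis, p63 keeps basal cells in the stratified lineage and opens the enhancers that later factors use. As cells leave the basal layer, ZNF750 and KLF4 switch on late genes, OVOL1 restrains proliferation, and the grainyhead-like factors drive barrier and junction genes. C/EBP factors act in the suprabasal layers and also in inflammatory gene expression, and KLF5 is a factor of proliferating epithelial cells. Mast cells release histamine in the skin, where keratinocytes meet it.

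The starts of GRHL3, KLF4 and KLF5 are shown because these are the members with a probe that was higher with histamine, and because GRHL3 and KLF5 each have 2 annotated starts. Sequences are the 250 bases before each start in RefSeq (GRCh38.p14), written 5′ to 3′ on the strand of the gene, and 7 of the 10 members were matched in that table. Capitals mark the CACCC box (CACCC or GGGTG) and the GC box (GGGCGG or CCGCCC), elements that Krüppel-like and Sp factors can bind. No sequence of GRHL2 is given.
GRHL3 upstream start, chr1:24319107-24319356, plus strand: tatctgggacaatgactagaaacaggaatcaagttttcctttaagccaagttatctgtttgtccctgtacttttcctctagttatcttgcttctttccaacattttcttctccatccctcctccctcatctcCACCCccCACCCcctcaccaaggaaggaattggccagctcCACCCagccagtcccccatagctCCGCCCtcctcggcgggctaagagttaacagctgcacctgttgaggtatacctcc
GRHL3 downstream start, chr1:24322790-24323039, plus strand: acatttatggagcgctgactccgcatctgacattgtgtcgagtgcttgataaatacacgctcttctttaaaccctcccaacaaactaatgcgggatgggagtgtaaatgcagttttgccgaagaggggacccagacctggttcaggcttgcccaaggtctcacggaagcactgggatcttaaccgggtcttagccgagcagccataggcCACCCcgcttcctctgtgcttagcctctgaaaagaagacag
KLF4, chr9:107489770-107490019, minus strand: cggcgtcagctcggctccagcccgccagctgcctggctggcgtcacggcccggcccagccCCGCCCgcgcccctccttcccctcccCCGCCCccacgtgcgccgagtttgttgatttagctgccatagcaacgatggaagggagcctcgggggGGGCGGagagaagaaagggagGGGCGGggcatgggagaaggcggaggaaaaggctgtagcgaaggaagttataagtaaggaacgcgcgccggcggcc
KLF5 upstream start, chr13:73054726-73054975, plus strand: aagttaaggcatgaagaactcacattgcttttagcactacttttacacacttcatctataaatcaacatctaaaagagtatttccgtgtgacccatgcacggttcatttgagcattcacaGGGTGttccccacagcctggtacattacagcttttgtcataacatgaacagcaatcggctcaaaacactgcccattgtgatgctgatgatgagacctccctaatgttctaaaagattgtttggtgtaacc
KLF5 downstream start, chr13:73058755-73059004, plus strand: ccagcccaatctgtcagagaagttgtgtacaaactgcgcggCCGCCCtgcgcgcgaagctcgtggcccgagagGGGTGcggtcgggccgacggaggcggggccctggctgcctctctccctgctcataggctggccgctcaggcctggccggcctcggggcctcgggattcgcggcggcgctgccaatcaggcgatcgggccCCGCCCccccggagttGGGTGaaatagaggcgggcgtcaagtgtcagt

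The upstream GRHL3 start had 3 CACCC boxes and 1 GC box, and the downstream GRHL3 start had 1 CACCC box and no GC box. KLF4 had no CACCC box and 4 GC boxes. The upstream KLF5 start had 1 CACCC box and no GC box, and the downstream KLF5 start had 2 of each. None of the marked elements overlapped another. A CACCC box was present in 54.7% and a GC box in 42.6% of 35116 RefSeq windows of the same 250 bases, so that either element is common. The grainyhead-like consensus AACCGGTT was in none of the printed windows and in 0.117% of all windows. The C/EBP consensus TTGCNNAA was found 2 times before the downstream GRHL3 start and in no other printed window, against 9.05% of all windows with at least 1. The AP-1 element TGANTCA was in none of the printed windows (6.57% of all windows), and TATAAA was in the upstream KLF5 window alone among them (10.7% of all windows). All motifs were searched on both strands, and a match is a description of the letters only. The probe annotation ties GRHL3 probes to transcripts, not to these starts.

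Signals were expressed as normalized log2 intensity, after background correction and quantile normalization. A probe counted as detected on an array at a detection p-value under 0.05, and was kept for testing when detected on at least 3 of 6 arrays, which held for 17871 probes. The lowest normalized log2 intensity of a detected probe was 5.32 to 5.5 over the arrays. The median raw signal of all probes was 121 to 124 on the histamine arrays and 122 to 141 on the control arrays, and 36.7% to 40.9% of probes were detected. Across kept probes, the correlation was 0.983 to 0.988 within a group and 0.954 to 0.969 between groups, where probes are not replicates. The labels call the samples a triplicate and do not say whether they were separate cultures, so p-values measure the spread between these arrays, which may be technical. Control and histamine sample names come from different numbered series and no slide or scan label was given, so a batch that follows those series cannot be told apart from the treatment.

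Keratinocyte identity was checked with 10 markers, of which 7 had a probe, and all 7 were detected on every array. Their summed normalized signal was 27600 to 33600 on the histamine arrays and 24800 to 25900 on the control arrays. No fibroblast probe of 13 and no endothelial probe of 7 was kept. FAP, PDGFRB, THY1, CDH5, CLDN5, KDR and PECAM1 were detected on no array, while the other genes of these lists were each detected on at least 1. Per array, 0 to 2 of 8 fibroblast genes and 0 or 1 of 6 endothelial genes were detected. One of 7 melanocyte probes and 4 of 15 immune cell probes were kept, and TYR, TYRP1, CD3E and PTPRC were detected on no array. Of the genes with a probe, 0 to 3 of 5 melanocyte genes and 2 or 3 of 6 immune cell genes were detected per array. The summed normalized signal of the immune cell markers was 1490 to 1540 on the histamine arrays and 1110 to 1220 on the control arrays, and 1 of their 4 kept probes was called higher; the part of this shift in the results was not tested. Skeletal muscle markers were higher on all histamine arrays, with 7 of 8 kept probes called higher and none lower. Their summed normalized signal was 37300 on histamine replicate 1, which stood far apart, 1820 and 1540 on histamine replicates 2 and 3, and 531 to 559 on the control arrays. Each member call given below was also made without histamine replicate 1. Histamine replicates 2 and 3 still exceeded the control arrays, so leaving out replicate 1 does not remove the muscle signal. Its part in the member calls was not tested.

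Of the 14 probes, 8 were kept, for 6 members: GRHL2, GRHL3, KLF4, KLF5, CEBPA and CEBPB. Each of the 8 was detected on all 3 histamine arrays and on at least 2 of 3 control arrays. With limma and Benjamini-Hochberg adjustment over all kept probes, 3 of the 8 were higher with histamine and 1 was lower, while 4 did not pass. Over all 17871 kept probes 11.0% were higher and 10.9% were lower, or 21.9% in either direction. Histamine arrays lay wholly above control arrays for 3 of the 8 member probes, against 16.4% of all kept probes, and wholly below for 2, against 20.9%. The median log2 difference, histamine minus control, was 0.48 over the 8 probes and -0.05 over all kept probes. The contrast moved many genes, and these few probes are not independent of each other, since GRHL3 and KLF4 have 2 each.

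**Figure D1:**
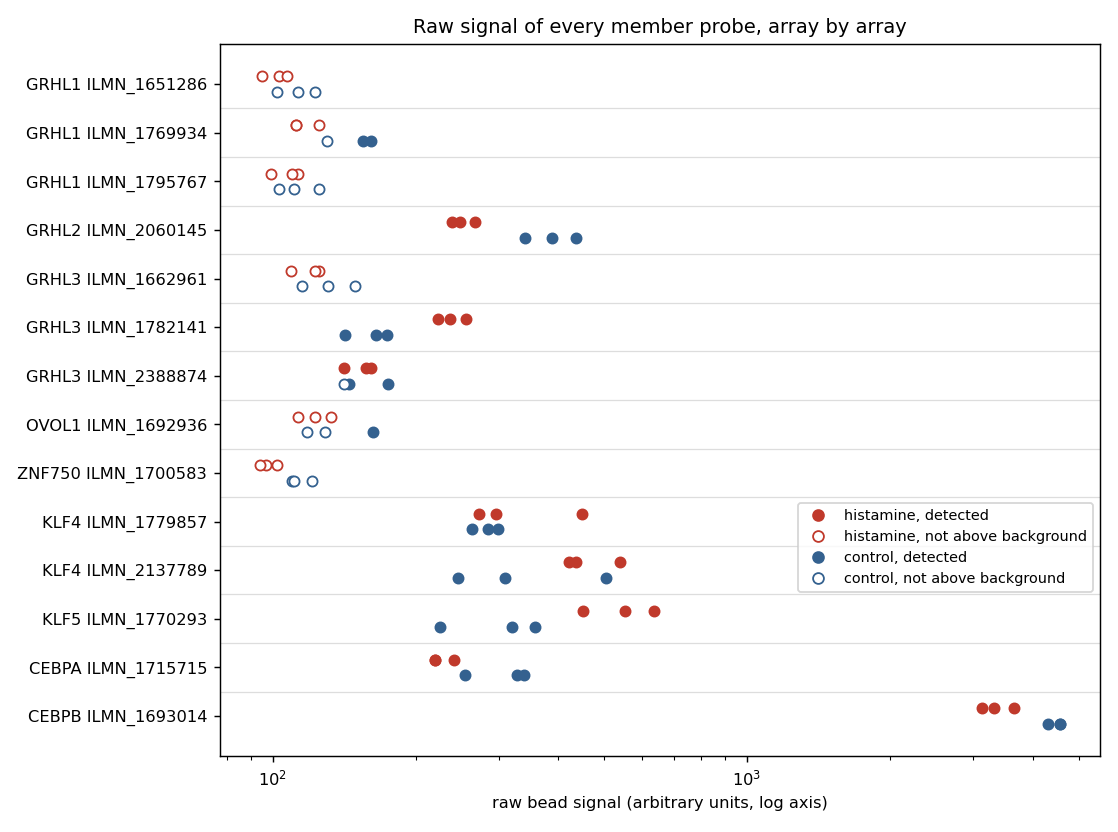
Raw bead signal (log axis, arbitrary units) of all 14 member probes on each array, histamine (red) above control (blue) in each row. Filled points were detected and open points were not above background; the 3 GRHL1 probes, 1 of 3 GRHL3 probes, OVOL1 and ZNF750 are mostly or wholly open.

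GRHL3, which activates barrier genes such as TGM1, was higher with histamine on 1 of its 2 kept probes. Probe ILMN_1782141 had normalized log2 intensities of 7.16, 7.39 and 7.31 in histamine cells, against 5.62, 5.58 and 6.24 in control cells. The groups did not overlap, and control replicate 3 was the closest to the histamine arrays. The log2 difference was 1.47 ± 0.24 (SE; limma adjusted p = 0.000231, n = 3 per group), a fold of 2.78, and 1.92% of kept probes had a larger absolute difference. In RNA from whole cultures, a change per cell and a change in the share of cells that express a gene cannot be told apart. In raw signal the probe read 223, 237 and 255 with histamine and 142, 165 and 174 in control, so the control arrays were near background. The size of the change depended on how background was treated, with 0.71 without background correction and 0.51 in the authors' processed values, both past the threshold.

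The second kept GRHL3 probe, ILMN_2388874, is annotated to the same transcript. It had log2 intensities of 6.07, 6.25 and 5.52 in histamine cells and 5.69, 5.76 and 5.32 in control cells. The groups overlapped, and the probe was below the detection threshold on control replicate 3. Its log2 difference was 0.36, with a 95% interval of -0.22 to 0.94 (limma adjusted p = 0.39), and it was 0.21 without histamine replicate 2, 0.23 without control replicate 3 and 0.58 without histamine replicate 3, none of which passed. The third GRHL3 probe, ILMN_1662961, is annotated to another transcript and was detected on no array. Whether the 2 kept probes differ in response was not tested, and GRHL3 rests on 1 probe.

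GRHL2, which maintains E-cadherin, claudins and other traits of epithelial cells, was lower with histamine. Its single probe ILMN_2060145 had log2 intensities of 7.33, 7.50 and 7.41 in histamine cells, against 8.17, 7.95 and 8.06 in control cells. Both groups were tight and did not overlap. The log2 difference was -0.65 ± 0.17 (SE; limma adjusted p = 0.0112), so that control exceeded histamine 1.57-fold. In raw signal GRHL2 read 239 to 267 with histamine and 341 to 436 in control. Among kept probes, 14.5% had a larger absolute difference. The call held in all 17 alternatives, with an adjusted p of up to 0.0491 without control replicate 1, and the value was -0.37 in the authors' processed values. GRHL2 and GRHL3 (ILMN_1782141) thus moved in opposite directions, each by the same test. CDH1, which encodes E-cadherin, had a log2 difference of -0.06 and did not pass (limma adjusted p = 0.725). The claudin gene CLDN1 was called higher, at 0.38 (adjusted p = 0.0171), and CLDN4 had 0.28 and did not pass (adjusted p = 0.49). A link between GRHL2 and these genes was not tested.

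GRHL1, which regulates desmosomal cadherins, was at background. Probes ILMN_1651286 and ILMN_1795767 were detected on no array, with raw signals of 95 to 113 in histamine cells and 102 to 125 in control cells. Probe ILMN_1769934 read 125, 112 and 112 with histamine, none of them above background, against 130, 155 and 161 in control, the last 2 detected. No bound on its fold is given, since control replicate 1 was not above background either. It was not kept for testing. With no filter on dim probes its log2 difference was -0.59 (limma adjusted p = 0.267).

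**Figure D2:**
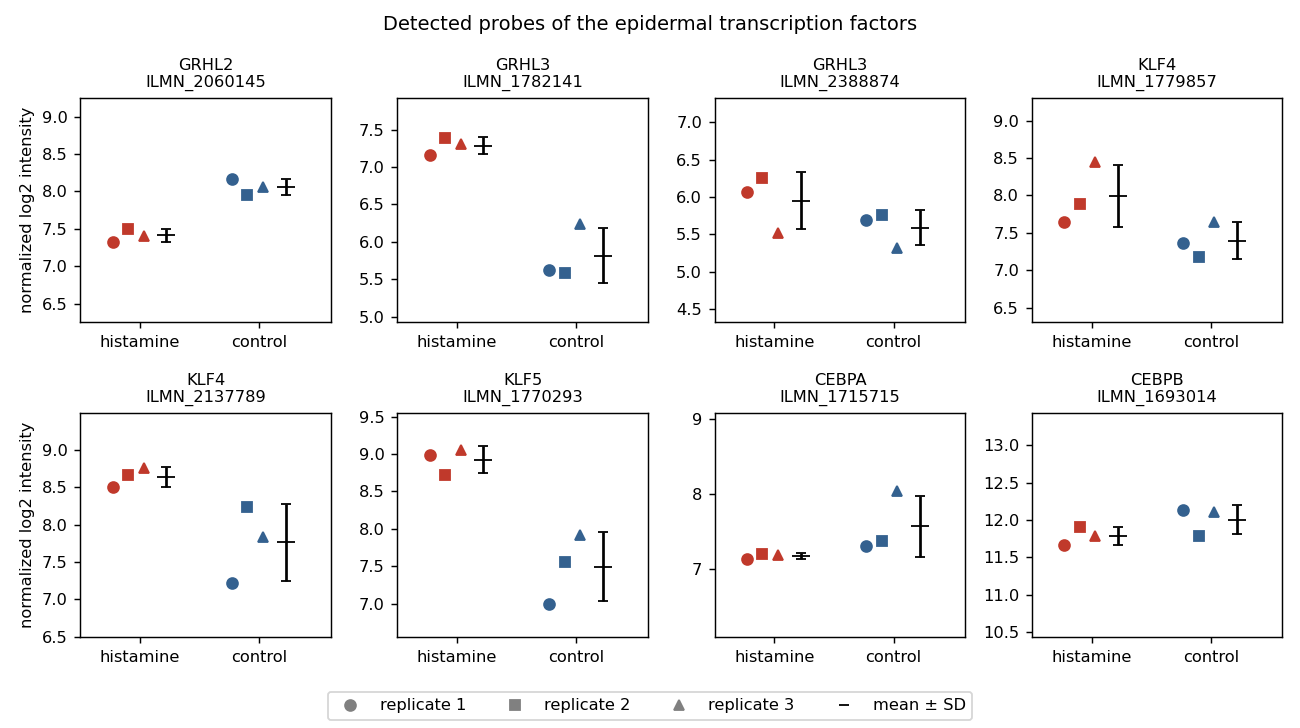
Normalized log2 intensity of the 8 kept probes, histamine (red, left) and control (blue, right), 1 point per array with the mean and SD of 3 arrays beside them; every panel spans 3 log2 units. GRHL3 (ILMN_1782141), KLF4 (ILMN_2137789) and KLF5 lie higher with histamine without overlap, and GRHL2 lies lower.

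KLF5, a factor of proliferating epithelial cells, was higher with histamine on its single probe. Probe ILMN_1770293 had log2 intensities of 8.99, 8.72 and 9.06 in histamine cells and 7.0, 7.56 and 7.92 in control cells. All histamine arrays lay above all control arrays, and the control arrays spread over 0.92 log2 units against 0.34 for the histamine arrays. The log2 difference was 1.43 ± 0.20 (SE; limma adjusted p = 7.09e-05), a fold of 2.69, and 2.13% of kept probes had a larger absolute difference. Raw signals were 554, 450 and 638 with histamine and 225, 358 and 320 in control. KLF5 was called in all 17 alternatives. Its difference ranged from 0.90 in the authors' processed values to 1.64 without control replicate 3.

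KLF4, a factor needed for the skin barrier in mice, was higher on 1 of its 2 probes. Probe ILMN_2137789 had log2 intensities of 8.5, 8.66 and 8.76 in histamine cells, against 7.22, 8.24 and 7.84 in control cells. Control replicate 2 came closest to the histamine arrays. The log2 difference was 0.87 ± 0.21 (SE; limma adjusted p = 0.00629), a fold of 1.83. Before normalization the groups overlapped on this probe, at 422, 436 and 539 with histamine and 246, 505 and 309 in control; control replicate 2 also had the highest median signal of all arrays. The call was lost without the intensity trend (adjusted p = 0.0506), and the difference was 0.54 in the authors' processed values.

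The other KLF4 probe, ILMN_1779857, had log2 intensities of 7.64, 7.88 and 8.45 in histamine cells and 7.37, 7.17 and 7.65 in control cells. Histamine replicate 1 was just under control replicate 3, so the groups overlapped. The log2 difference of this probe was 0.60, with a 95% interval of 0.14 to 1.05, and it did not pass (limma adjusted p = 0.055). Its value rested on single arrays: it passed without histamine replicate 1 (0.77, adjusted p = 0.0268) and without control replicate 3 (0.72, adjusted p = 0.0273), and was 0.36 without histamine replicate 3 (adjusted p = 0.288) and 0.48 without control replicate 2 (adjusted p = 0.209). Both KLF4 probes pointed the same way in each alternative that gave them a value.

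CEBPA, which restrains proliferation in the epidermis, did not pass the test. Its log2 intensities were 7.13, 7.20 and 7.18 in histamine cells, against 7.30, 7.37 and 8.04 in control cells. The histamine arrays all lay below the control arrays, as they did for 20.9% of kept probes, and control replicate 3 stood above the other controls. The log2 difference was -0.40 (95% interval -0.85 to 0.05; limma adjusted p = 0.197), and -0.16 without control replicate 3. CEBPB, which acts with CEBPA in suprabasal cells and in acute phase gene expression, had log2 intensities of 11.67, 11.91 and 11.78 in histamine cells and 12.13, 11.78 and 12.10 in control cells. Its normalized groups overlapped, at control replicate 2. The raw signals of CEBPB did not overlap, at 3126 to 3659 with histamine and 4321 to 4580 in control. The log2 difference of CEBPB was -0.22 (95% interval -0.46 to 0.02; limma adjusted p = 0.194). With arrays scaled to the median of all probes CEBPB passed as lower, at -0.42 (adjusted p = 0.041). That scaling moved the median difference of all kept probes to -0.21, so the CEBPB value went down together with that median.

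OVOL1, a repressor that helps cells leave the cycle, was detected on control replicate 2 alone. Its raw signals were 123, 113 and 133 in histamine cells and 118, 163 and 129 in control cells, and no fold is given. ZNF750, a target of p63 that switches on late differentiation genes, was detected on no array, with 94 to 102 in histamine cells and 110 to 121 in control cells. For both, a change could not be measured at this signal.

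**Figure D3:**
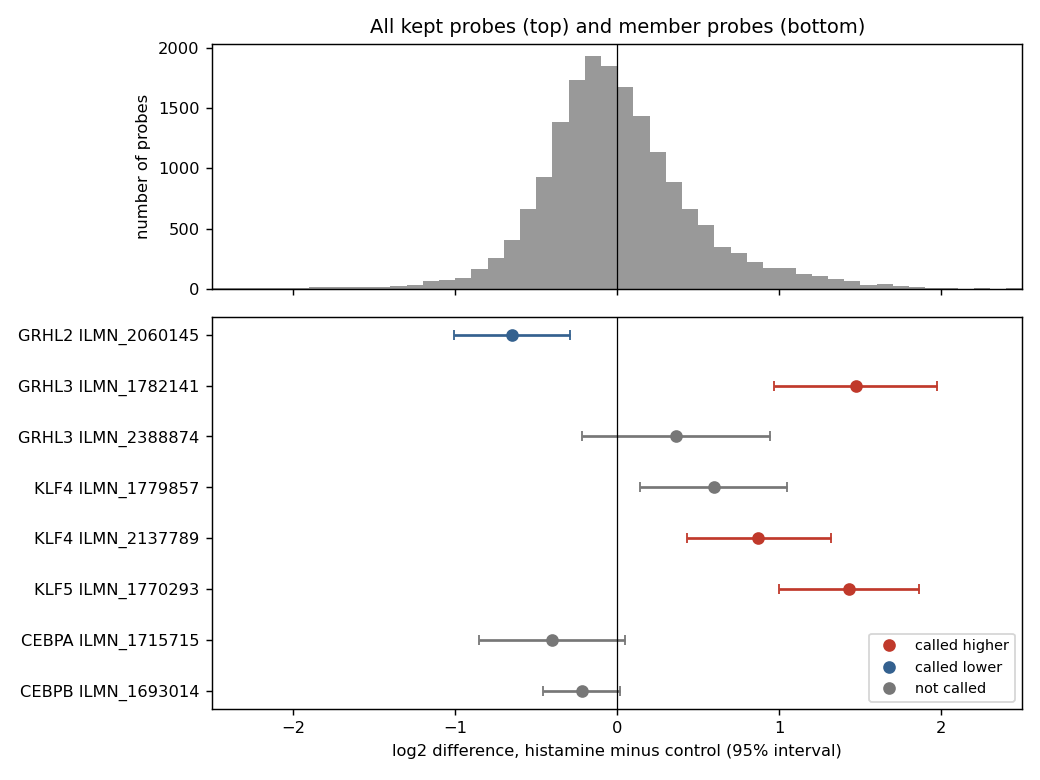
Log2 difference, histamine minus control, of all 17871 kept probes (top, counts in bins of 0.1) and of the 8 kept member probes (bottom, points with 95% intervals). GRHL3 (ILMN_1782141) at 1.47 and KLF5 at 1.43 sit in the upper tail, while GRHL2 at -0.65 is the member probe called lower.

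By the rule for likeness, the genes whose kept probe followed each called member most closely over the 6 arrays were listed, 2 per member. They were RSPRY1 (Pearson r = 0.9996) and HOXC9 (0.9988) for GRHL2, and DBNDD1 (0.9986) and CDKN1B (0.9976) for GRHL3. For KLF5 they were PAK1IP1 and ACOT1 (both 0.9972), and for KLF4 they were AP1S3 (0.9967) and LYPLA1 (0.9941). The arrays share a 2-group contrast, so high values of r are common over 6 arrays. HOXC9 lay under the lowest detected level on every histamine array, at 4.78, 5.09 and 4.88, so it was kept because of the control arrays. Its r with GRHL2 thus rests on background values in the histamine group. CDKN1B, which encodes the cell cycle inhibitor p27, had log2 intensities of 8.76, 8.94 and 9.00 with histamine and 6.93, 7.03 and 7.66 in control, with control replicate 3 nearest to histamine as for GRHL3.

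Other epidermal transcription factors stayed near the background share of calls. Of 24 kept probes in 17 genes, 2 were higher and 2 were lower (16.7%, against 21.9% of all kept probes), with a median log2 difference of 0.00. DLX5, a homeobox factor, was lower by probe ILMN_1759598, at 6.10, 6.49 and 6.12 in histamine cells and 7.72, 7.38 and 7.50 in control cells (-1.29 ± 0.21; limma adjusted p = 0.000291). Its difference was -0.70 without background correction and -0.52 in the authors' processed values, both past the threshold. DLX3, a p63 target of the upper epidermis, was also lower (-0.81 ± 0.21; adjusted p = 0.0107). It had -0.48 without background correction and -0.37 in the authors' processed values, and its call was lost without control replicate 1 (adjusted p = 0.0615). TFAP2C, an AP-2 factor of surface ectoderm, was higher on 1 of 2 probes (0.54 ± 0.13; adjusted p = 0.00704), a call lost with median scaling over all probes and without the intensity trend. The other TFAP2C probe, with means of 9.71 with histamine and 9.64 in control, had 0.07 and did not pass (adjusted p = 0.753). The C/EBP family member CEBPD, which is counted again among the genes under C/EBP factors, was also higher (0.42 ± 0.14; adjusted p = 0.0384), a call lost in 8 of 17 alternatives, among them leaving out histamine replicate 1 or 2 or control replicate 2 or 3. The vitamin D receptor VDR had -0.58 and did not pass (adjusted p = 0.0558).

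Corepressors and chromatin partners that these factors recruit, or that hold differentiation back, had 4 of 17 kept probes lower and none higher (23.5% called, against 21.9% of all kept probes; median log2 difference -0.22). EZH2, the Polycomb methyltransferase that represses late genes in progenitors, was lower on probe ILMN_1652913, at 7.70, 7.48 and 7.72 in histamine cells and 8.73, 8.66 and 8.51 in control cells. The log2 difference was -1.0 ± 0.16 (limma adjusted p = 0.000229), while the other 2 kept EZH2 probes had -0.43 and -0.22 and did not pass (adjusted p = 0.0883 and 0.38). The called EZH2 probe had -0.63 in the authors' processed values. KDM1A, a histone demethylase that works with ZNF750, was lower (-0.49 ± 0.12; adjusted p = 0.00534) and was not called without the intensity trend. UHRF1, which maintains DNA methylation, was lower on 1 of 2 probes (-0.83 ± 0.26; adjusted p = 0.03), and the call was lost in 6 of 15 alternatives, among them leaving out histamine replicate 2 or 3 or control replicate 1 or 2. That UHRF1 difference was -0.33 without background correction and -0.22 in the authors' processed values. The called UHRF1 probe was near background with histamine, at 5.82, 5.11 and 5.58, and was detected on 2 of those 3 arrays. The other UHRF1 probe was brighter, with means of 10.7 with histamine and 10.99 in control. It had -0.29 and did not pass (limma adjusted p = 0.0799).

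Genes that p63 binds, most of them basal, had 4 of 19 kept probes higher and 2 lower (31.6% called, against 21.9% of all kept probes; median log2 difference 0.24). One of the 2 lower probes is the DLX3 probe given above, which stands in both lists. PERP, a desmosomal p63 target, was higher, at 11.61, 11.60 and 11.79 in histamine cells and 10.09, 10.51 and 10.91 in control cells (1.16 ± 0.16; limma adjusted p = 3.33e-05). ITGA6, an integrin of basal cells, was higher on 1 of 2 probes (0.69 ± 0.19; adjusted p = 0.0132), and its call was lost with median scaling over all probes, with no intensity trend, and when control replicate 1, control replicate 2 or histamine replicate 3 was left out. DST, a hemidesmosome linker, had 4 kept probes that differed in sign: 1 had -0.80 (adjusted p = 0.0544) and the others had 0.58, 0.51 and 0.44 (adjusted p = 0.173, 0.181 and 0.251), and none passed.

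Barrier genes under the grainyhead-like factors, KLF4, ZNF750 or OVOL1 had 3 of 18 kept probes higher and 1 lower (22.2% called, against 21.9% of all kept probes; median 0.07). TGM1, the transglutaminase that crosslinks the cornified envelope and a GRHL3 target, was higher, at 8.06, 8.68 and 8.68 in histamine cells and 7.57, 7.46 and 8.08 in control cells. Histamine replicate 1 fell below control replicate 3, and the log2 difference was 0.77 ± 0.21 (limma adjusted p = 0.0116). FLG, the precursor of filaggrin, was higher by 0.71 ± 0.15 (adjusted p = 0.00193). TGM1 and FLG lost their calls with median scaling over all probes, and TGM1 also with no intensity trend and without histamine replicate 2 or 3 or control replicate 2. ESRP1, an epithelial splicing factor, was lower, at 7.05, 7.55 and 7.10 in histamine cells and 7.77, 8.22 and 7.97 in control cells (-0.75 ± 0.20; adjusted p = 0.0109), and was not called without control replicate 2. ESRP1 had -0.40 and TGM1 had 0.48 in the authors' processed values, both past the threshold. TGM3, another transglutaminase, had -0.53 and did not pass (adjusted p = 0.185).

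Genes under C/EBP factors had 14 kept probes in 12 genes, with 10 probes higher and none lower (71.4% called, against 21.9% of all kept probes; median log2 difference 1.71). SAA1 and CXCL8 each had more than 1 called probe, and the 4 probes not called were of TRIB1, TRIB2, TRIB3 and DDIT3. The list was written with the largest increases of these data already known, so its count is not independent evidence of a direction. S100A8, a subunit of the antimicrobial protein calprotectin, was at 11.49, 11.77 and 11.80 in histamine cells and 7.33, 7.38 and 7.09 in control cells (4.42 ± 0.14; limma adjusted p = 6.66e-13). Its partner S100A9, the acute phase gene SAA1 and the cytokine IL6 had differences of 3.89, 3.42 and 3.23. SAA1 (ILMN_2304512) and IL6 were detected on 1 of 3 control arrays each and were kept because of the histamine arrays, so the size of their differences rests on control values near background. It was 1.86 for SAA1 and 1.83 for IL6 without background correction, and 1.40 and 1.42 in the authors' processed values. The second SAA1 probe, ILMN_1701017, was detected on no control array and was likewise kept because of the histamine arrays. By its bound it was at least 3.11-fold higher, and the bound itself was not tested. With a detection p-value under 0.01 required on all 6 arrays, 7 probes of the list were called in place of 10. Over the same arrays CEBPA and CEBPB did not pass the test, while CEBPD, a C/EBP factor counted in this list, was called higher, as given above. The activity of C/EBP factors was not tested.

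**Figure D4:**
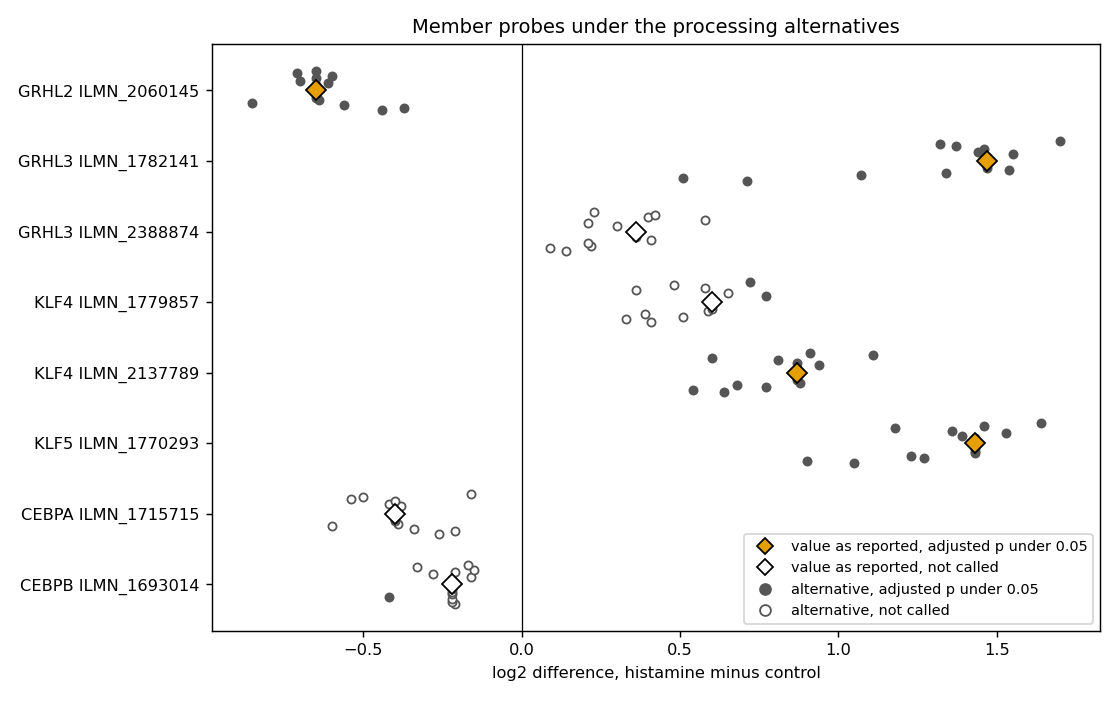
Log2 difference, histamine minus control, of each kept member probe as reported (diamond) and under each processing alternative that gave it a value (circles; filled where the adjusted p was under 0.05). No member probe changed direction, and GRHL2, GRHL3 (ILMN_1782141) and KLF5 kept their calls in every alternative that gave them a value.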

How the data were processed

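Total RNA of 3 histamine and 3 control HaCaT samples was labelled with biotin and hybridized to Illumina HT-12 arrays, per the labels' protocols. The deposited intensity of a probe is its mean bead signal, neither background subtracted nor normalized, per the file headers. The detection p-values rank each signal among negative control beads, per the file headers. The authors' processed values are log2 values with equal quantiles (median 7.46), and the sources used here do not give their transform. GenomeStudio 2010.1 and lumi are named per the submitters' processing notes.

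Signals were background corrected with normexp in limma 3.58.1 (R 4.3.3, statmod 1.5.0) from the detection p-values with an offset of 16, which compresses differences of dim probes, then quantile normalized and log2 transformed. Probes detected (p under 0.05) on at least 3 of 6 arrays were fitted singly with the 2 groups, using eBayes with an intensity trend (17.76 total degrees of freedom at the median). Two-sided p-values were adjusted by Benjamini and Hochberg over 17871 kept probes, and a probe was called at an adjusted p under 0.05. The number of arrays limits the precision. Gene symbols came from the platform annotation: 30112 probes carry 1 symbol, 8 several and 17202 none, and the 9 members with a probe matched their RefSeq symbol by Entrez identifier. A lower bound on a fold sets the mean of the brighter group against the other group with values raised to the lowest detected level of each array.

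The members, the 5 related gene lists, the 6 marker lists and the tests were chosen with earlier results of these data known. Named genes are all members, up to 4 kept probes of each related list with the largest absolute difference, and the 2 genes most like each called member. CEBPD, CDH1, CLDN1, CLDN4, CXCL8, DDIT3, TRIB1, TRIB2 and TRIB3 were named after their values were seen. The scripts were tested on simulated data. Alternatives covered background correction, the authors' processed values, the offset, scaling, filters, 1 probe per gene, the variance model, a replicate block and leaving out each array.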

Additional observations from a re-analysis of the deposited data

How the results depend on the processing

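No member probe changed direction in any alternative that gave it a value. GRHL2 and KLF5 were called in all 17 alternatives and GRHL3 (ILMN_1782141) in all 16 that kept it. The alternative that dropped this GRHL3 probe required a detection p-value under 0.01 on all 6 arrays. The probe KLF4 ILMN_2137789 was called in 16 of 17, and KLF4 ILMN_1779857 in 5 of 16, including robust moderation (adjusted p = 0.0446) and the stricter detection filter (adjusted p = 0.0468). CEBPB was called in 1 of 17 and CEBPA in none. With arrays scaled to the median of all probes, 2 member probes were lower, and 28.2% of all calls were higher against 50.3% in the values reported; 2 probes of the barrier genes were then called, and likewise 2 without the intensity trend. Without that trend 2 probes of corepressors and chromatin partners were called. Testing 1 probe per gene gave 2220 calls among 10406 probes in place of 3915 among 17871. Of those 10406 probes 9.29% were higher and 12% lower, against 11% and 10.9% in the values reported. Leaving out 1 array at a time gave 2501 calls, without control replicate 2, to 4509, without control replicate 3, and 1 to 6 called probes of the barrier genes, the lowest without control replicate 2 and the highest without control replicate 3. With the replicate number as a block, 3531 probes were called, and among the member probes the block changed the call of KLF4 ILMN_1779857 alone (0.60, adjusted p = 0.0408), while KLF6 and CEBPD lost theirs (adjusted p = 0.0566 and 0.0537). Deviations from the group means of arrays with the same replicate number correlated at -0.023, -0.033 and -0.021, which shows no shared deviation by number. Whether samples with the same number were handled together was not tested. Signals near background limit GRHL1, OVOL1, ZNF750 and the control level of GRHL3.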

Other observations

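Family members outside the chosen set, and AP-2 factors, were looked at after the values of the set were seen. Among 8 other Krüppel-like factors with 10 kept probes, 1 probe was higher and none was lower, against 11.0% and 10.9% of all kept probes. That probe was of KLF6, an early response factor of epithelial cells, at a log2 difference of 0.37 ± 0.13 (limma adjusted p = 0.0452), and its call was lost in 9 of 17 alternatives, including leaving out any 1 array except control replicate 1. KLF9, a glucocorticoid target in keratinocytes, had 0.60 ± 0.28 and KLF12 had -0.65 ± 0.28, and neither passed (adjusted p = 0.135 and 0.112). CEBPZ, which is named with the C/EBP factors but acts in ribosome assembly, was higher by 0.43 ± 0.11 (adjusted p = 0.00825) and lost its call with median scaling over all probes and without the intensity trend. OVOL2, a relative of OVOL1 that was detected on every array, had -0.33 ± 0.13 and did not pass (adjusted p = 0.0718). The 4 kept probes of TFAP2A, an AP-2 factor of keratinocytes, lay between -0.10 and 0.16, and none passed. OVOL2 and TFAP2A were already counted among the other epidermal transcription factors above.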
